A study of Mus musculus with 6 samples.

Results

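The genes described here encode 10 cell-surface receptors through which eosinophils sense lipid mediators, histamine and extracellular nucleotides. They were taken by symbol from a table of 23420 genes, and all 10 were found. They are Gpr44 (the table's older name for Ptgdr2, the prostaglandin D2 receptor CRTH2), Ptger2 and Ptger4 (the prostaglandin E2 receptors EP2 and EP4), Ltb4r1 (the leukotriene B4 receptor BLT1), Ptafr (the receptor for platelet-activating factor), S1pr1 and S1pr4 (receptors for sphingosine 1-phosphate), Hrh4 (the histamine H4 receptor), P2ry2 (a receptor for ATP and UTP) and P2ry14 (a receptor for UDP-glucose). Eosinophils were grown from wild-type mouse bone marrow in stem cell factor and FLT3 ligand at 100 ng/mL each and then in IL-5 at 20 ng/mL. On day 14, after removal of dead cells, cells received either IL-33 (2.5 ng/mL, 3 libraries) or phosphate-buffered saline (PBS, 3 libraries), and RNA was taken after 3 hours. The IL-5 culture is common to both groups. Whether replicates were separate mice or cultures is not stated, so the p-values cover only the variation among these libraries, part or all of which may be technical.

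These receptors belong to the G protein-coupled family, whose members pass a signal from a ligand outside the cell to G proteins inside it. Gs raises the level of cyclic AMP, a messenger that generally restrains granulocytes. Gi lowers cyclic AMP and carries most chemoattractant signals, and Gq raises calcium. In eosinophils, prostaglandin D2 acting on CRTH2, leukotriene B4, platelet-activating factor and histamine acting on the H4 receptor are known attractants, whereas prostaglandin E2 acting on EP2 or EP4 is known as an inhibitor of migration and activation.

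Values are normalized counts, in which the authors divided each library's gene counts by 1 factor. A log2 fold change is IL-33 minus PBS on log2(normalized count + 1), which understates the change of low genes, and calls were made where the Benjamini-Hochberg adjusted p, over 10544 genes tested with limma, was below 0.05. The libraries held 8218303 to 10785521 recovered reads. Rn45s, which encodes the precursor of ribosomal RNA, took 24.3%, 59.6% and 54.8% of the reads in IL-33 replicates 1, 2 and 3, and 13.7% to 24.8% in the PBS libraries. IL-33 replicate 1 differed from the other IL-33 libraries (Pearson r 0.951 and 0.922 across genes, against 0.969 between replicates 2 and 3, and 0.914 to 0.941 between IL-33 replicate 1 and the PBS libraries). The eosinophil identity on the labels was checked against 10 defining markers, all of which were detected. Prg2, the gene of major basic protein, was at 11033 to 20834 in the IL-33 libraries and 28512 to 41054 in the PBS libraries. The markers' summed level was 19019 to 28599 in the IL-33 libraries and 40744 to 53113 in the PBS libraries, and Prg2 makes up most of it. Of the 10 markers, 8 were called lower with IL-33. Siglec5, as the table calls the gene of Siglec-F, missed the threshold (−0.54), and Gata1, a transcription factor of the lineage, was called higher, at 2748, 3820 and 5774 in the IL-33 libraries, against 1460, 1307 and 1324 in the PBS libraries (1.53, adjusted p = 0.00479, limma). The macrophage complement genes C1qa, C1qb and C1qc stayed at or under 13.6 in every library, although Csf1r, a further macrophage marker, was at 3980 to 4934 in the IL-33 libraries and 1461 to 1732 in the PBS libraries. Ly6c2, a monocyte marker, was at 612, 486 and 190 in the IL-33 libraries, against 690, 772 and 607 in the PBS libraries. Csf1r was called higher (1.40), and Ly6c2 (−0.84) and the macrophage marker Cd68 (−0.04) were not called. The part of these marker shifts in the receptor values was not tested. Neutrophil genes were also present, with a summed level over 10 genes of 2307 to 2691 with IL-33 and 2383 to 2897 with PBS. Among them, Ngp was at 1357, 1684 and 1525 with IL-33, above Epx, an eosinophil marker (1046, 1596 and 541). With PBS Ngp was at 1318, 1679 and 1281, below Epx (4038, 4408 and 3550). Of the neutrophil genes, Mpo (−1.24), Ctsg (−1.40) and Cxcr2 (−1.24) were called lower with IL-33. Ngp (0.10), Ltf (−0.39), Mmp8 (0.14), Retnlg (0.33), Camp (−0.60) and Prtn3 (−0.32) were not called. Whether neutrophils contributed to the receptor values was not tested.

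With IL-33 the receptor genes changed in both directions. Of the 10 genes, 9 passed the filter on low values, and 2 of them were called higher (Ptger2 and P2ry2), against 17.4% of all genes tested. Another 4 were called lower (Gpr44, S1pr1, P2ry14 and Ltb4r1), against 14.4% of all genes tested. In either direction, 31.9% of all genes tested were called. The remaining 3, Ptafr, Ptger4 and S1pr4, were not called, and Hrh4 lay below the filter (a normalized count of at least 10 in at least 3 libraries). Gpr44 reached that level in all 3 PBS libraries and in 1 IL-33 library. The number called lower was 3 without PBS replicate 1, 2 without PBS replicate 2 and 1 without PBS replicate 3. The groups were fully separated in 7 of the 9, against 50.2% of all genes tested. The median log2 fold change was −0.51 over the 9 genes and −0.03 over all genes tested. In these bulk libraries, fewer cells of a type and less RNA per cell cannot be told apart.

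**Figure D1:**
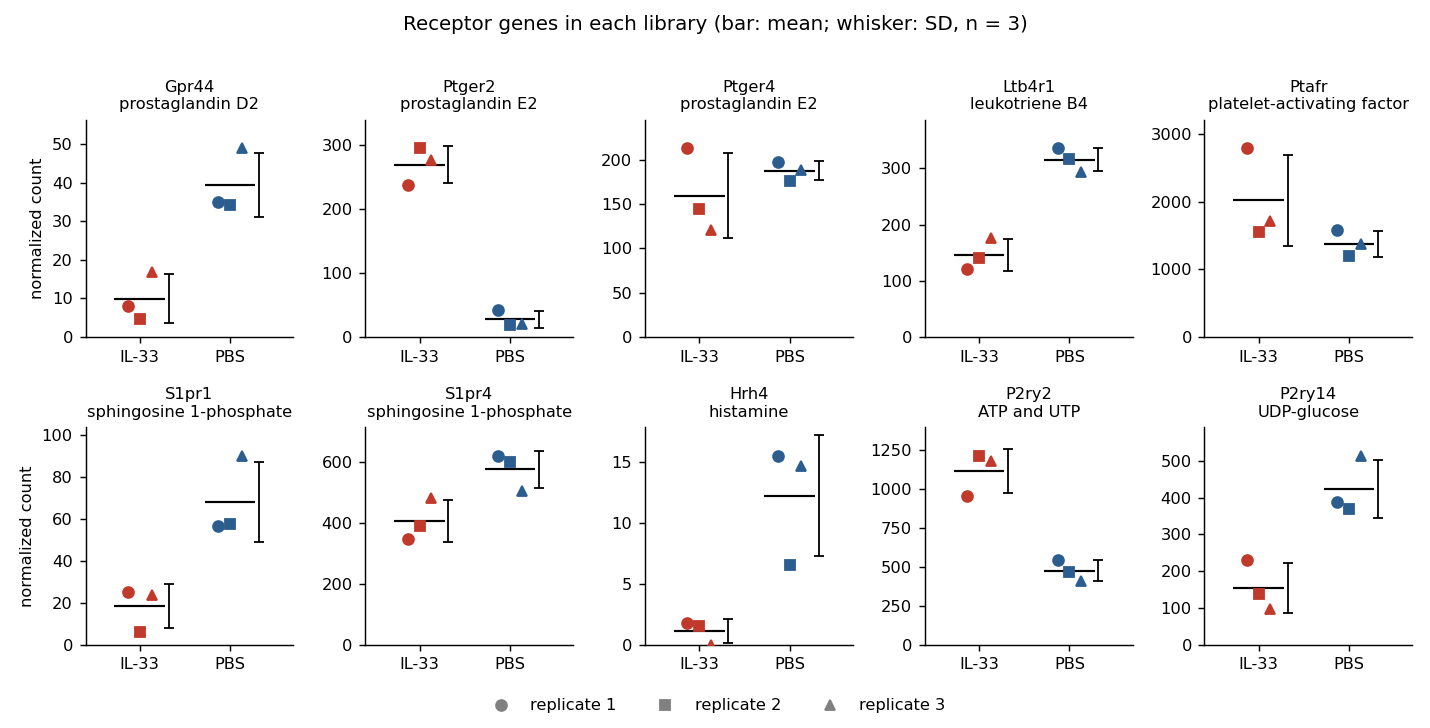
Normalized counts of the 10 receptor genes in each of the 6 libraries, with IL-33 left of PBS, marker shapes for the replicates, a bar at the mean and a whisker of 1 SD (n = 3). Every axis starts at 0, and the groups overlap for Ptger4 and Ptafr and are apart for the other 8 genes.

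Ptger2, which encodes the Gs-coupled receptor EP2 (chromosome 14, 44988195 to 45003820, GRCm38), had the largest log2 fold change of the 9 tested genes. Hrh4, which was not tested, had a read ratio of similar size in the other direction. Ptger2 was at 237, 295 and 276 normalized counts in the 3 IL-33 libraries, against 42.7, 18.2 and 21.0 in the 3 PBS libraries. Even the lowest IL-33 library lay far above the highest PBS library. The change of 3.35 on the log2 scale (SE 0.32, adjusted p = 0.000465, limma), a 10.2-fold increase, ranked 65 among the increases of all genes tested. It was called without each library in turn, and its log2 fold change ranged from 2.33 to 3.71 over the 20 alternative settings. Exons of antisense transcripts cover 4.74% of its exonic bases.

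The tested genes whose values across the 6 libraries ran closest to those of Ptger2 were Adora2a, Cdc42ep2 and Maff. The measure was the Euclidean distance between log2 values centred on their own means, which was 0.457, 0.526 and 0.567. Adora2a encodes a Gs-coupled adenosine receptor. It was at 1576, 1806 and 2295 in the IL-33 libraries, against 237, 130 and 133 in the PBS libraries.

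Ptger4, which encodes EP4, the other Gs-coupled receptor for prostaglandin E2 (chromosome 15, 5206661 to 5244187), did not follow Ptger2. It was at 213, 145 and 120 in IL-33 replicates 1, 2 and 3, against 197, 176 and 189 in PBS replicates 1, 2 and 3. IL-33 replicate 1 lay above the PBS libraries and the other two lay below them. Its log2 fold change was −0.27 (SE 0.24, adjusted p = 0.396, limma). Without IL-33 replicate 1 Ptger4 was called lower (−0.50, adjusted p = 0.0319, limma). With IL-33 replicate 1 alone against PBS the value was 0.19. Exons of other genes on the opposite strand cover 16.5% of its exonic bases.

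The promoters of Ptger2 and Ptger4 are shown because these genes share a ligand and differed in their change. The sequences are from RefSeq (GRCm38.p6) and run from 250 bases before to 50 bases after a start, at chr14:44987861-44988160 on the plus strand for Ptger2 and at chr15:5244138-5244437 on the minus strand for Ptger4. Capitals mark matches, on either strand, to the motifs of AP-1 (TGANTCA), the cAMP response element (TGACGTCA), GATA factors (AGATAA), C/EBP factors (TTGCNNAA), the GC box (GGGCGG) and NF-kB (a degenerate motif).
Ptger2: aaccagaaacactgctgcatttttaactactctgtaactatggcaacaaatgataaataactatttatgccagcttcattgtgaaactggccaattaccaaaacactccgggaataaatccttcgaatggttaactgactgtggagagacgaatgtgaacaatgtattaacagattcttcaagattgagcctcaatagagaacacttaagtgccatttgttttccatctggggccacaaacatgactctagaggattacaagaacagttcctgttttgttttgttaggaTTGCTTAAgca
Ptger4: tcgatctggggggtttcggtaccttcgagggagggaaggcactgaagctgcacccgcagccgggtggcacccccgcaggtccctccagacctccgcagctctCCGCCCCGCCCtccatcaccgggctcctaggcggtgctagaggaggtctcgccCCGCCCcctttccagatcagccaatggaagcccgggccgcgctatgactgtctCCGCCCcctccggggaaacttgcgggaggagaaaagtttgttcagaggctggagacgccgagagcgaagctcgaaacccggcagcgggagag
The Ptger4 window held 4 GC boxes, the first pair of which share a base, and no other match. The Ptger2 window held none of these boxes and 1 match to the C/EBP motif, which lies after the RefSeq start. That window lies wholly before the GENCODE start of the gene (44988195). The GENCODE start of Ptger4 (5244187, minus strand) lies inside its window, so the windows are not placed alike. Over all 32851 promoter windows in the same table, a GC box was present in 35.7%, a C/EBP motif in 10.8%, a GATA motif in 11.2%, an AP-1 motif in 7.81%, an NF-kB motif in 4.51% and a cAMP response element in 1.79%. A match is a description of the letters and not a binding site.

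Because both genes were read in the same library, their shares do not depend on the factor that scales it. Counted per kb of exon, Ptger2 made up 58.8%, 72.3% and 74.6% of the sum of Ptger2 and Ptger4 in IL-33 replicates 1, 2 and 3, against 21.7%, 11.7% and 12.5% in PBS replicates 1, 2 and 3. Ptger2 was thus the larger of the pair in every IL-33 library and the smaller in every PBS library. The log2 ratio of Ptger4 over Ptger2 was −0.79 ± 0.56 with IL-33 and 2.83 ± 0.57 with PBS (SD, n = 3 each), a difference of −3.62 (exact permutation test, two-sided, p = 0.10, the smallest that 3 against 3 libraries can give, adjusted p = 0.10 over 4 pairs). Log2 ratios were taken on values + 1, so they depend somewhat on the scaling where values are low. With 0.5 or 5 added in place of 1, the difference was −3.65 or −3.42.

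Gpr44, which encodes CRTH2, the Gi-coupled receptor by which prostaglandin D2 attracts eosinophils (chromosome 19, 10937160 to 10942511), fell. It was at 8.09, 4.61 and 16.9 in IL-33 replicates 1, 2 and 3 (9, 3 and 10 reads), against 34.9, 34.2 and 48.9 in PBS replicates 1, 2 and 3 (45, 47 and 70 reads). The highest IL-33 library lay under the lowest PBS library. On the log2 scale it fell by 2.04 (SE 0.45, adjusted p = 0.0132, limma). When PBS replicate 2 was left out, the value was −2.12 and missed the threshold (adjusted p = 0.0526, limma), and so did the −1.87 obtained without PBS replicate 3 (adjusted p = 0.0761, limma). Exons of Ccdc86, on the opposite strand, cover 39.0% of its exonic bases, and no source used here says how the counting treated strand. Ccdc86 was at 55.7, 84.6 and 144 in the IL-33 libraries, against 81.5, 95.3 and 140 in the PBS libraries.

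Other prostaglandin genes moved as well. Of 18 listed genes, 11 were tested. Of these, 5 were called higher (45.5%, against 17.4% of all genes tested), 2 lower (18.2%, against 14.4%) and 4 not called. The median log2 fold change was 0.69. Without PBS replicate 3 the counts were 3 and 0. Ptgs2, which encodes the inducible cyclooxygenase COX-2, rose to 4540 ± 3213 with IL-33, against 427 ± 235 with PBS (log2 fold change 3.31, SE 0.51). Ptgir, which encodes the Gs-coupled prostacyclin receptor, rose to 1849 ± 113 with IL-33, against 650 ± 96.9 with PBS (1.52, SE 0.17). Abcc4, a transporter that exports prostaglandins (1.10, SE 0.18), Ptges3, a cochaperone with prostaglandin E synthase activity (1.05, SE 0.32), and Ptges2, a further prostaglandin E synthase gene (0.75), were also higher. Ptges2 lies outside the naming rule, was chosen after its value was seen, and was called in 1 of the 6 fits that left out a library (without IL-33 replicate 1). Tbxas1, the thromboxane synthase gene (−0.75, SE 0.16), and Ptgs1, which encodes the constitutive COX-1 (−0.56, SE 0.18), were lower.

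Of the prostaglandin genes named by rule, Ptgs2, Ptgir and Abcc4 were called without each library in turn. Ptges3 lost its call without IL-33 replicate 2 (0.97) or without PBS replicates 1, 2 or 3 (1.27, 0.90 and 0.99). Tbxas1 was not called without PBS replicate 2 (−0.78) or 3 (−0.71). Ptgs1 lost its call without IL-33 replicates 2 or 3 (−0.68 and −0.57) or PBS replicates 1, 2 or 3 (−0.49, −0.56 and −0.62). Ptgdr, the gene of the other prostaglandin D2 receptor, DP1, had 0 reads in all 6 libraries, which allows up to 2.10 to 5.08 normalized counts in a library (3 reads, counting error only).

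Ltb4r1, which encodes BLT1, the Gi-coupled receptor that draws granulocytes toward leukotriene B4 (chromosome 14, 55765962 to 55768494), fell by less but more evenly. It was at 121, 140 and 176 in the IL-33 libraries, against 336, 317 and 294 in the PBS libraries. The decrease was −1.12 on the log2 scale (SE 0.20, adjusted p = 0.00576, limma), and the gene was called without each library in turn. Ptafr, which encodes the receptor for platelet-activating factor (chromosome 4, 132564067 to 132582683), was at 2789, 1555 and 1717 in IL-33 replicates 1, 2 and 3, against 1573, 1191 and 1372 in PBS replicates 1, 2 and 3. IL-33 replicate 1 stood above all others, and the lowest IL-33 library lay within the PBS range. Ptafr was not called (0.51 on the log2 scale, SE 0.24, adjusted p = 0.133, limma), and the value was 1.03 with IL-33 replicate 1 alone and 0.25 without it. Within each library, the log2 ratio of Ptafr over Ltb4r1 was 3.75 ± 0.67 with IL-33 and 2.11 ± 0.18 with PBS (SD, n = 3 each), with no overlap between the groups (difference 1.64, exact permutation test, p = 0.10, adjusted p = 0.10).

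Among 16 listed genes of the leukotriene and lipoxygenase pathways, 9 were tested. Of these, 2 were called higher (22.2%, against 17.4% of all genes tested), 3 lower (33.3%, against 14.4%) and 4 not called. The median log2 fold change was −0.23. Without PBS replicate 3 the higher and lower counts were 1 and 2. The lower genes encode enzymes. Lta4h, the hydrolase that completes leukotriene B4, fell to 337 ± 81.0 with IL-33, against 786 ± 37.3 with PBS (−1.24, SE 0.20). Alox15, the 15-lipoxygenase gene of eosinophils (−0.96, SE 0.15), and Alox5, which starts leukotriene synthesis (−0.73, SE 0.16), were also lower. The higher genes were Abcc1, the exporter of leukotriene C4 (1.39, SE 0.21), and Ltc4s, the leukotriene C4 synthase gene (1.76), which lies outside the naming rule and was chosen after its value was seen. Other genes share 26.4% of the exonic bases of Ltc4s, which was not called without PBS replicate 2 or 3 (1.76 and 1.43). Alox5 lost its call without IL-33 replicate 2 (−0.64) or PBS replicates 2 or 3 (−0.76 and −0.71), and Lta4h, Alox15 and Abcc1 were called without each library in turn. The receptor genes Cysltr1, Cysltr2 and Oxgr1 were under 10 normalized counts in every library.

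Of 8 genes that make or break down platelet-activating factor, 7 were tested, with a median log2 fold change of 0.27. Of these, 2 were called higher (28.6%, against 17.4% of all genes tested), 0 lower (against 14.4%) and 5 not called. No lower call appeared with edgeR or DESeq2 either (0 genes each), nor at an unadjusted p under 0.05 with limma (0 genes). This depended on the scaling. With equal totals 0 were called higher and 2 lower. With equal totals without Rn45s 2 were lower, and with the Rn45s share as a covariate 1 was. Lpcat2, the acyltransferase that makes the mediator in inflammatory cells, was at 4662 ± 938 with IL-33, against 2316 ± 113 with PBS (log2 fold change 0.99, SE 0.19), and 8.47% of its exonic bases are shared with other genes. Pafah1b1, a subunit of a hydrolase of the mediator that is also known as Lis1, was at 9822 ± 5806 with IL-33, against 2358 ± 220 with PBS (1.85, SE 0.43). Pafah1b1 lost its call without IL-33 replicate 2 (1.72) or PBS replicates 1, 2 or 3 (1.91, 1.86 and 1.78).

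**Figure D2:**
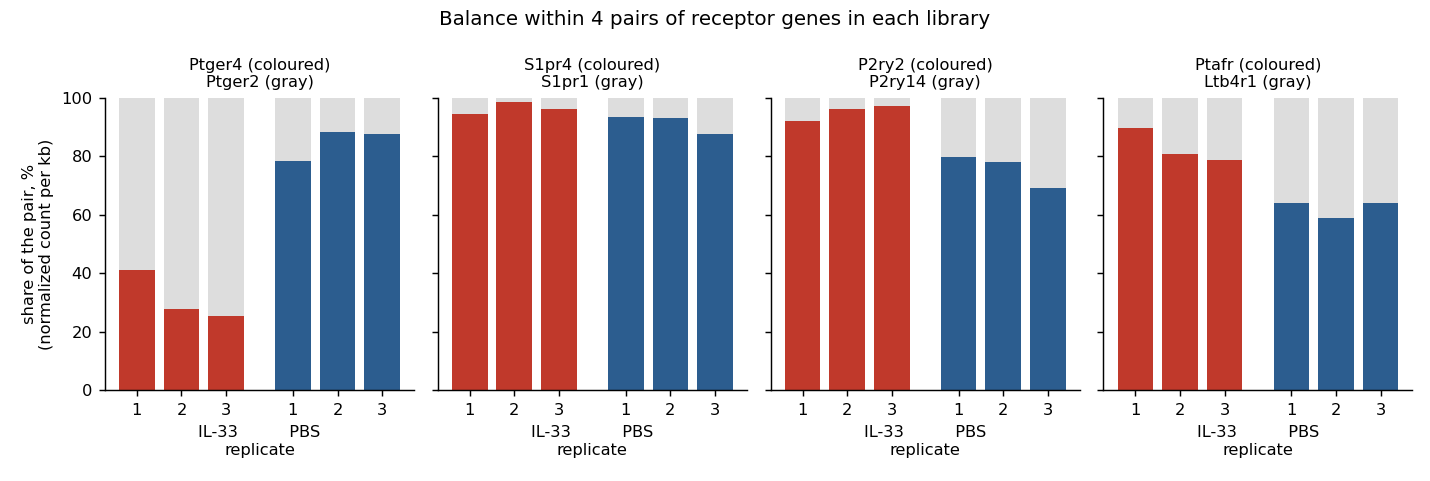
Share of each receptor gene in the summed normalized counts per kb of a pair, in percent, for each library, with the 3 IL-33 libraries left of the 3 PBS libraries. Ptger4 held 25.4% to 41.2% of its pair with IL-33 and 78.3% to 88.3% with PBS, and the coloured gene of the other 3 pairs held a larger share in each IL-33 library than in any PBS library.

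The receptor genes for sphingosine 1-phosphate were both at lower levels with IL-33. S1pr1, whose Gi-coupled product lets blood cells leave tissues along the gradient of this lipid (chromosome 3, 115710433 to 115715072), was at 25.2, 6.15 and 23.7 in the IL-33 libraries, against 56.7, 57.5 and 90.2 in the PBS libraries. The groups did not overlap, and IL-33 replicate 2, at 4 reads, was the lowest. The log2 fold change was −2.02 (SE 0.51, adjusted p = 0.0204, limma). Without IL-33 replicate 2 the value was −1.41 and the gene was still called (adjusted p = 0.0309, limma). The call was lost when any 1 PBS library was left out, at −2.13 without replicate 1, −2.12 without replicate 2 and −1.80 without replicate 3 (limma adjusted p = 0.058, 0.0645 and 0.0979).

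S1pr4, the form of this receptor typical of blood cells (chromosome 10, 81497747 to 81500132), was at 347, 389 and 483 in the IL-33 libraries, against 620, 601 and 506 in the PBS libraries. The groups did not overlap, but IL-33 replicate 3 and PBS replicate 3 lay close together. At −0.51 on the log2 scale it missed the threshold (SE 0.19, adjusted p = 0.0688, limma). S1pr4 was called lower without IL-33 replicate 3 (−0.64, adjusted p = 0.0347, limma). The log2 ratio of S1pr4 over S1pr1 was 4.60 ± 1.05 with IL-33 and 3.09 ± 0.53 with PBS (SD, n = 3 each), a difference of 1.51 (exact permutation test, p = 0.10, adjusted p = 0.10). That difference was 0.92 without IL-33 replicate 2, in which S1pr1 had 4 reads. With 0.5 or 5 added to the values in place of 1, it was 1.55 or 1.24.

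Of 14 further genes for sphingosine 1-phosphate, 7 were tested with limma, with a median log2 fold change of −0.02. Of these, 0 were called higher (against 17.4% of all genes tested), 1 lower (14.3%, against 14.4%) and 6 not called. In the higher direction 1 gene had an unadjusted p under 0.05, and edgeR and DESeq2 each called 1. The lower gene was Asah1, which encodes acid ceramidase, at 130 ± 63.2 with IL-33, against 294 ± 31.5 with PBS (−1.30, SE 0.36). Asah1 lost its call without IL-33 replicate 2 (−1.37) or PBS replicates 1, 2 or 3 (−1.30, −1.38 and −1.22). Of the receptors for this lipid outside the set, S1pr2 was at 104 with IL-33 and 71.8 with PBS and was not called (0.50).

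Hrh4, the gene of the histamine H4 receptor, a Gi-coupled attractant receptor of eosinophils and mast cells, was close to the limit of detection. It had 2, 1 and 0 reads in IL-33 replicates 1, 2 and 3 (1.80, 1.54 and 0 normalized counts), against 20, 9 and 21 reads in PBS replicates 1, 2 and 3 (15.5, 6.55 and 14.7 normalized counts). The groups did not overlap. After scaling, the ratio of IL-33 to PBS was 0.104 (95% exact interval 0.0208 to 0.323, counting error only). With no filter on low values its log2 fold change was −2.70 (adjusted p = 0.0126, limma), a value that depends on the pseudocount. Among mast cell and basophil markers, Cpa3 (−2.81) and Ms4a2 (−1.81) were called lower with IL-33. Gata2 (−0.35), Prss34, Mcpt8, Tpsb2 and Kit were not called. The summed level over 11 genes was 489 to 866 in the IL-33 libraries and 887 to 996 in the PBS libraries. Gata2 makes up most of it, at 358, 637 and 461 in the IL-33 libraries, against 700, 640 and 488 in the PBS libraries. Cpa3, the mast cell carboxypeptidase gene, was at 3.60, 7.69 and 5.08 in the IL-33 libraries, against 30.3, 44.4 and 58.0 in the PBS libraries, whereas Kit was at 23.1 to 37.8 in the IL-33 libraries and 25.5 to 32.1 in the PBS libraries. Mcpt4 was at 0 in every library. The part of these cells in the lower Hrh4 and Gpr44 values was not tested.

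Of 8 further histamine genes, 2 were tested. Of these, 1 was called higher, against 17.4% of all genes tested. Slc18a2, which encodes the vesicular amine transporter that loads histamine, was called higher, at 598 ± 121 with IL-33, against 254 ± 70.6 with PBS (log2 fold change 1.25, SE 0.26). Its call was lost without IL-33 replicate 2 (1.14) or PBS replicate 3 (1.02). Hdc, the gene of the histamine-forming enzyme, was at 3247 with IL-33 and 1942 with PBS and was not called (0.81). Hrh1, Hrh2 and Hrh3 averaged 10.7, 0.812 and 0.30 with IL-33 and 8.53, 1.21 and 0 with PBS and were not tested.

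The nucleotide receptors diverged. P2ry2, whose Gq-coupled product senses ATP and UTP released by stressed cells (chromosome 7, 100996568 to 101012866), was at 958, 1216 and 1183 in the IL-33 libraries, against 547, 468 and 412 in the PBS libraries. All IL-33 libraries lay above all PBS libraries. The log2 fold change was 1.23 (SE 0.18, adjusted p = 0.00272, limma), a 2.35-fold increase, and the gene was called without each library in turn. The tested genes closest to it across the 6 libraries were Mapkapk3 (distance 0.149), Numbl (0.165) and Ctdp1 (0.178).

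P2ry14, whose Gi-coupled product senses UDP-glucose (chromosome 3, 59113855 to 59153618), was at 229, 138 and 96.6 in IL-33 replicates 1, 2 and 3, against 388, 368 and 514 in PBS replicates 1, 2 and 3. The groups did not overlap, and IL-33 replicate 1 lay nearest to the PBS libraries. The log2 fold change was −1.52 (SE 0.31, adjusted p = 0.0101, limma), and it was −0.87 with IL-33 replicate 1 alone. Without PBS replicate 3 the value was −1.37 and the gene was not called (adjusted p = 0.0585, limma). The gene lies within Med12l on the opposite strand, with which it shares no exonic bases. Within each library, the log2 ratio of P2ry2 over P2ry14 was 2.93 ± 0.79 with IL-33 and 0.17 ± 0.43 with PBS (SD, n = 3 each), a difference of 2.76 (exact permutation test, p = 0.10, adjusted p = 0.10).

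Promoter windows of this pair are shown because the genes moved in opposite directions, again from RefSeq (GRCm38.p6) with matches to the same motifs in capitals. They lie at chr7:101012004-101012303 and chr3:59153443-59153742, both on the minus strand, and are the first of 2 starts listed for P2ry2 and of 4 listed for P2ry14.
P2ry2: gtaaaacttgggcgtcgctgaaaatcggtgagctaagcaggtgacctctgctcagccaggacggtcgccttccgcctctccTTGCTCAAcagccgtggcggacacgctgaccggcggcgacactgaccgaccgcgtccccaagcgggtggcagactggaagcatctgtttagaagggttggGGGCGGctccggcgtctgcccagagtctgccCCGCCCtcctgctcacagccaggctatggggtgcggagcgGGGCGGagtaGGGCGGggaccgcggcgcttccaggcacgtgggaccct
P2ry14: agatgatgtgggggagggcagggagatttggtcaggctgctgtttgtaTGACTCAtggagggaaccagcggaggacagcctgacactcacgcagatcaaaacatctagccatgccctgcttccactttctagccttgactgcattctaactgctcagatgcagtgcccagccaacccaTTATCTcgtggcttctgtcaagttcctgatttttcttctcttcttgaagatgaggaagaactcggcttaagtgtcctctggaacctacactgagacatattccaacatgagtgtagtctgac
The P2ry2 window held 4 GC boxes and 1 C/EBP motif. The P2ry14 window held 1 AP-1 motif and 1 GATA motif and no GC box. By the GENCODE coordinates P2ry2 starts at 101012866 on the minus strand, so its whole window lies inside the gene. The GENCODE start of P2ry14 (59153618) lies inside its window.

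Of 27 other genes listed under nucleotides and adenosine, 15 were tested, with a median log2 fold change of −0.33. Of these, 4 were called higher (26.7%, against 17.4% of all genes tested), 2 lower (13.3%, against 14.4%) and 9 not called. The lower count was 4 when IL-33 replicate 1 was left out and 1 when PBS replicate 3 was. The higher genes included both adenosine receptors that couple to Gs. Adora2a rose to 1892 ± 367 with IL-33, against 167 ± 60.9 with PBS (3.54, SE 0.27), and Adora2b rose to 500 ± 125 with IL-33, against 60.4 ± 37.1 with PBS (3.17, SE 0.41). Panx1, a channel that releases ATP (2.04, SE 0.27), and Slc29a1, a transporter of adenosine (1.21, SE 0.21), were also higher. P2rx1, an ATP-gated channel, fell to 1332 ± 100.2 with IL-33, against 3035 ± 197 with PBS (−1.19, SE 0.15), and P2ry10, which encodes a G protein-coupled receptor, was lower too (−1.90, SE 0.42). P2ry10 carries a P2ry symbol, which alone does not make its product a nucleotide receptor, and it is 1 of the 2 lower calls. P2ry10 lost its call without IL-33 replicate 2 (−1.86) or PBS replicates 1 or 3 (−1.81 and −1.89), and the other 5 were called without each library in turn. Adora3, the Gi-coupled adenosine receptor gene, was at 717 with IL-33 and 977 with PBS and was not called (−0.45), and 20.9% of its exonic bases are shared with other genes.

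Ranked by normalized count per kb of exon, the receptor genes kept Ptafr first in both groups and changed order below it. With IL-33 the means were 555 for Ptafr, 285 for P2ry2, 170 for S1pr4, 105 for Ltb4r1 and 51.9 for Ptger2, with no overlap between neighbours in this order. Ptger4 (24.0) and P2ry14 (13.99) overlapped, as did S1pr1 (6.02) and Gpr44 (3.74), and Hrh4 was last (0.684). With PBS the means were 379 for Ptafr, 241 for S1pr4, 227 for Ltb4r1, 121 for P2ry2 and 38.3 for P2ry14, where S1pr4 and Ltb4r1 overlapped. Ptger4 (28.2) and S1pr1 (22.4) overlapped, followed by Gpr44 (14.9), Hrh4 (7.54) and Ptger2 (5.26), where the last pair overlapped. Ptger2 thus held the fifth place with IL-33 and the last with PBS, and P2ry2 the second with IL-33 and the fourth with PBS.

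**Figure D3:**
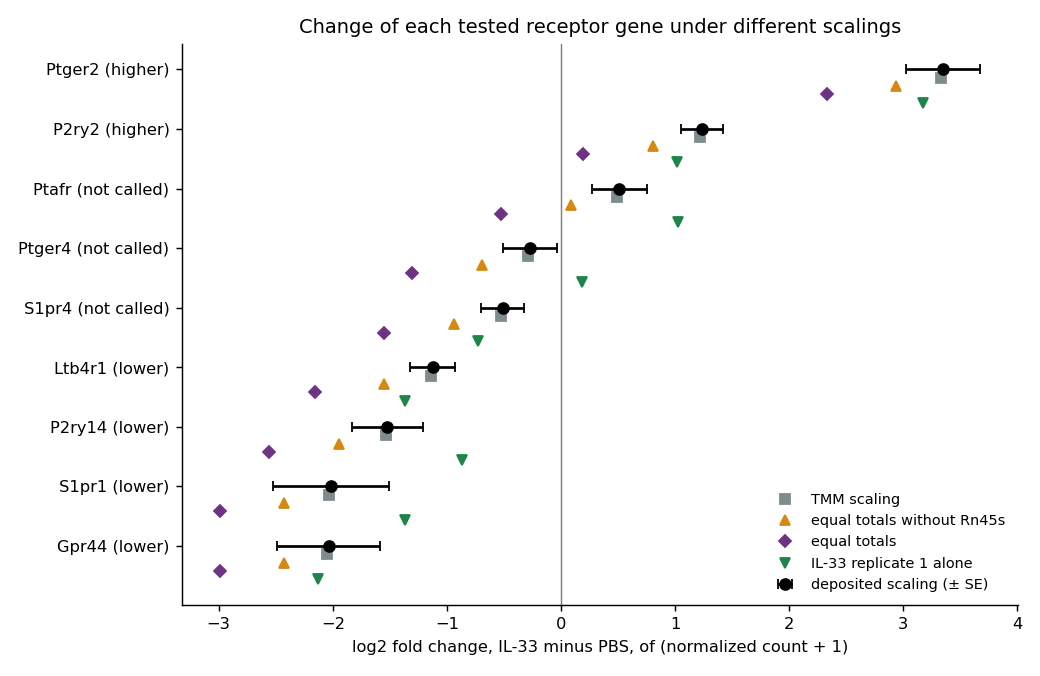
Log2 fold change, IL-33 minus PBS, of the 9 tested receptor genes with the deposited scaling (black, whisker of 1 SE), with 3 other scalings, and with IL-33 replicate 1 alone against PBS. Ptger2 lies between 2.33 and 3.35 in all of these, while P2ry2 is at 0.19 and Ptafr at −0.53 when libraries are scaled to equal totals.

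The scaling of the libraries sets the zero of these changes. The deposited factors equalled median-of-ratios factors computed from the recovered reads. Scaling to equal totals put the median change over all genes at −1.08 (log2), and scaling to equal totals without Rn45s put it at −0.46. Under equal totals Ptger2 was at 2.33 and called, P2ry2 was at 0.19 and not called (adjusted p = 0.57, limma), and Ptafr changed sign (−0.53). Ltb4r1 (−2.16), P2ry14 (−2.56), S1pr1 (−2.99), Gpr44 (−2.99), S1pr4 (−1.55) and Ptger4 (−1.31) were then called lower. Each of these scalings moves all genes of a library by nearly the same amount on the log2 scale. P2ry2 therefore stayed above the median of all genes and these genes stayed below it, which is no separate check. With the Rn45s share as a covariate, Ptger2 (3.04), P2ry2 (0.94), Ptafr (1.05) and Ltb4r1 (−1.39) were called, and Gpr44 (−1.90, adjusted p = 0.0884, limma), S1pr1 (−1.06, adjusted p = 0.264, limma) and P2ry14 (−0.78, adjusted p = 0.104, limma) were not.

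Downstream of the receptors, 52 genes of G proteins and their regulators were listed. Of these, 46 were tested, 7 were called higher (15.2%, against 17.4% of all genes tested), 11 lower (23.9%, against 14.4%) and 28 not called, with a median log2 fold change of −0.09. Leaving out IL-33 replicate 1 gave 13 higher and 14 lower, and leaving out PBS replicate 3 gave 3 higher and 4 lower. Lower genes included Rgs18, a brake on Gi and Gq signals, at 28.6 ± 31.5 with IL-33, against 157 ± 17.3 with PBS (−3.16, SE 0.81), Gnaz, a member of the Gi class (−2.05, SE 0.27), Adcy9, an adenylyl cyclase that makes cyclic AMP (−1.74, SE 0.20), and Prkacb, a catalytic subunit of the cyclic AMP-dependent kinase (−1.63, SE 0.18). Higher genes included Prkar1a, a regulatory subunit of that kinase, at 7891 ± 2005 with IL-33, against 3336 ± 447 with PBS (1.22, SE 0.22), its relative Prkar2b (1.03, SE 0.25), Rgs3, another regulator of G protein signals (1.64, SE 0.32), and Gnao1, of the Gi class (1.34, SE 0.41). Gnaz, Adcy9, Prkacb, Prkar1a and Rgs3 were called without each library in turn. Rgs18 lost its call without IL-33 replicate 2 (−3.22) or PBS replicates 1, 2 or 3 (−3.25, −3.12 and −3.10), and its value was −4.09 when IL-33 replicate 1 was left out and −2.15 when IL-33 replicate 3 was. With the Rn45s share as a covariate Rgs18 was at −1.31 and not called (adjusted p = 0.312, limma). Prkar2b lost its call without IL-33 replicate 2 or PBS replicates 1, 2 or 3 (0.90, 1.10, 1.00 and 0.98). Gnao1 lost its call without IL-33 replicate 2 or 3 (1.29 and 0.94) or PBS replicates 1, 2 or 3 (1.22, 1.33 and 1.47). Of the 16 genes named as higher across the 7 pathway lists, Ptgs2, Adora2a, Adora2b and Panx1 were also called higher under equal totals and the other 12 were not, while all 12 named as lower were called lower there. That scaling moved all genes down, with 255 called higher and 5414 lower of 10711 tested. The lower calls there are therefore no separate support. With the Rn45s share as a covariate, 17 of the 28 named genes were called in the same direction. Tbxas1, Alox5, Pafah1b1, Lpcat2, Asah1, Slc18a2, P2ry10, Rgs3, Gnao1, Prkar2b and Rgs18 were not called with it.

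**Figure D4:**
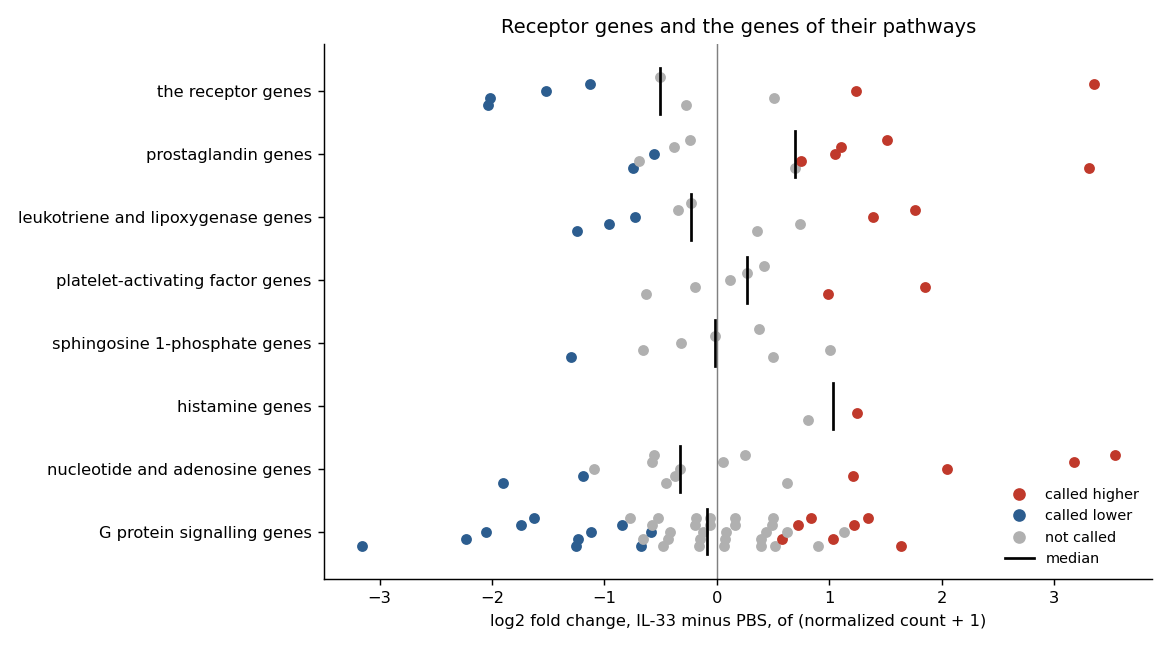
Log2 fold change, IL-33 minus PBS, of each tested gene (dots, coloured by call) in the receptor set and in 7 pathway lists, with the median of each as a bar. The receptor set has its median at −0.51, and Ptger2, Ptgs2, Adora2a and Adora2b lie above 3.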

How the data were processed

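Gene expression was measured by RNA sequencing of 6 libraries of cultured mouse eosinophils. Per the labels' protocols, ribosomal RNA was removed from total RNA before directional library preparation. The authors deposited 1 signal per gene and library, a normalized count, that is, the reads of the gene over a factor common to the library. HISAT2, HTSeq and DESeq2 with build mm10 are named per the submitters' processing notes, and the sources used here do not give versions, annotation or strand setting. Every value (100%) was a whole multiple of its column's smallest value within 0.1 of a read, so whole reads were recovered. Without molecular identifiers, reads may repeat molecules, so intervals cover counting error only.

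The test was limma 3.58.1 (R 4.3.3), moderated with a mean-variance trend and two-sided, on log2(value + 1). Genes needed a normalized count of at least 10 in at least 3 libraries, and Benjamini-Hochberg adjustment covered all 10544. The script was tested on simulated data. Alternatives were other pseudocounts, filters and scalings, no trend, edgeR 4.0.16 and DESeq2 1.42.0 on recovered reads (3401 and 3862 genes called, against 3359), the replicate number as a block, the Rn45s share as a covariate, and libraries left out. Pair ratios, taken on log2(value + 1), were compared by an exact permutation test. The members, the 7 pathway lists and the marker lists were chosen with earlier results of these data known. Up to 4 called genes per list and direction with a mean of at least 50 in a group were named, or 2 with the smallest p where none was called. Coordinates and exon lengths are from GENCODE for GRCm38, in which all 10 receptor genes and 141 of 143 listed genes were found. Promoter windows of 8 of the 10 receptor genes were read from RefSeq.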

Additional observations from a re-analysis of the deposited data

How the results depend on the processing

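Over 20 alternative settings, 157 of 179 values of the tested receptor genes kept their direction and their side of the threshold, 10 were no longer called, 9 became called and 3 changed sign, and no call changed direction. With all libraries 2 receptor genes were higher and 4 lower. Leaving out a library gave 2 higher each time and 1 to 5 lower, 695 to 2910 higher and 318 to 2950 lower over all genes (1837 and 1522 with all libraries), and 12 to 28 higher and 7 to 25 lower over the pathway lists (21 and 19 with all libraries). Scaling to equal totals gave 1 receptor gene higher, 255 higher and 5414 lower over all genes, and 4 higher and 48 lower over the lists, and it changed the sign of Ptafr (−0.53), Lpcat2 (−0.052) and Prkar2b (−0.010). Without Rn45s in the totals the counts were 942 and 3595 over all genes and 34 lower over the lists. With the Rn45s share as a covariate they were 914 and 642 over all genes and 1 lower receptor gene, and Ptger4 changed sign (0.19). With IL-33 replicate 1 alone 29 list genes were lower and Ptger4 changed sign (0.19). Beyond the settings themselves, the cause was not tested. The filter at 50 left Gpr44 untested. The replicate block gave 1620 higher and 1298 lower genes and 2 higher and 4 lower receptor genes. Nothing in the labels says that same-numbered libraries share a mouse, culture or day, so they were not treated as pairs. Their deviations correlated at 0.0459, 0.242 and −0.164, and not every library correlated best with its own number. Depth limits Hrh4, Gpr44 and S1pr1, which had 10 reads or fewer in at least 1 IL-33 library.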

Other observations

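The receptor genes can also be ordered by the G protein that their products are known to use, a grouping chosen after the values were seen and given without a test. Its counts depend on which receptors it admits. Of 5 tested receptor genes that couple mainly to Gs (Ptger2, Ptger4, Ptgir, Adora2a and Adora2b), 4 were called higher and 0 lower (limma, with 0 lower by edgeR, DESeq2 or an unadjusted p under 0.05). Of 7 taken as coupling mainly to Gi (Gpr44, Ltb4r1, S1pr1, S1pr4, P2ry14, Ptger3 and Adora3), 0 were called higher and 4 lower (0 higher by the same 3 counts). Of 3 taken as coupling mainly to Gq (Ptger1, P2ry1 and P2ry2), 1 was called higher. The tested receptor genes Ptafr (0.51, not called), S1pr2 (0.50, not called) and P2ry10 (−1.90, called lower) were left out of these groups, since no main G protein was assigned to their products. Receptors kept as coupling mainly to 1 G protein may use others too. Ptafr and S1pr2, whose products can signal through Gi among others, had values above 0, and Ptafr was called higher with the Rn45s share as a covariate (1.05). All genes tested had 17.4% called higher and 14.4% lower. The number of Gi-coupled genes called lower was 1 to 5 when a library was left out (1 without PBS replicate 3, 2 without PBS replicate 2), 7 with equal totals and 1 with the Rn45s share as a covariate. The Gs-coupled genes had 4 called higher when any library was left out and 3 with equal totals, and Ptger4 was called lower without IL-33 replicate 1 and with equal totals.

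Ptger1 shares 71.0% of its exonic bases with other genes, and its 454, 641 and 952 in the IL-33 libraries, against 646, 885 and 791 in the PBS libraries, are uncertain for that reason.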
